A study of Sus scrofa with 3 samples.

Results

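Between late gestation and the first month of life the pig liver passes from a fetal, partly blood-forming organ to one that handles food. This account compares the microRNAs (miRNAs) of liver of the Jinhua breed, all males, at day 90 of embryonic life (E90) with those at postnatal day 30 (P30d, labelled as the stage of weaning). Each stage had 1 small RNA library, and liver of postnatal year 7 (P7y), also 1 library, is given only for context. The labels name 3 pigs for each stage and do not say whether their RNA was pooled, and no genetic change, diet or treatment is given for any group. Members were all mature miRNAs, by name and hairpin arm, with a mean of 10 or more counts per 1000000 reads of named miRNAs (CPM) over E90 and P30d. That left 335 miRNAs of 916 with a read in either library and of 969 with a read in the series. They held 99.9% of named miRNA reads at E90 and at P30d.

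A miRNA is cut from one side, or arm, of an RNA hairpin, and the arms are named 5p and 3p after the end of the hairpin they come from. Bases 2 to 8 from its 5′ end, the seed, pair with messenger RNAs, which are then translated less or degraded, so miRNAs with the same seed can bind the same sites. In liver, miR-122 is the best known miRNA of hepatocytes, where it acts on lipid metabolism. The let-7 family builds up as tissues mature, whereas the miR-17-92 cluster and the miRNAs of the imprinted DLK1-DIO3 locus are typical of growing and fetal tissue.

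The tables held 9406525 reads for E90 and 3775157 for P30d, of which 98.3% and 96.0% lay in named miRNAs. A count of 0 allows up to 0.325 CPM at E90 and 0.828 CPM at P30d. Intervals are exact 95% intervals of counting error only, and PCR copies of 1 molecule count as several reads. With 1 library per stage there was no replicate check, so every difference below is one between these libraries and no p-value is given. A miRNA was called higher or lower at P30d where its CPM differed by 2-fold or more (log2 ratio of P30d over E90 of 1 or more in size) and the interval left out 0. The hepatocyte markers miR-122, miR-192 and miR-194 held 23.8% of reads at E90 and 32.5% at P30d, nearly all of them miR-122 and miR-192. With miR-194a, the name that most miR-194 reads bear in the tables, they held 26.6% and 33.9%. Of the neural markers, miR-124 had no read and miR-9 had 58 reads at E90 and 23 at P30d. The embryonic stem cell markers had 1 read in each library. Pancreas markers held 0.131% and 0.0105% of reads, and striated muscle markers 0.0175% and 0.0382%. Hepatocyte markers thus far exceeded these markers of other tissues, so the tissue label fitted its markers.

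The sequences that carry the main differences follow, 5′ to 3′ and with T for U as in the deposited tables, with the seed in capitals. The first set holds the miRNAs that gained or lost the largest shares of reads. Where the representative read of an arm, the read that the tables list for it, differed between libraries in this set, both reads are shown. For miR-802-5p and miR-503-5p in the later sets, the reads differed and that of a single library is shown.
miR-122-5p at E90: tGGAGTGTgacaatggtgtttga
miR-122-5p at P30d: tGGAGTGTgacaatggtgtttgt
miR-26a-5p: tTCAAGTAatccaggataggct
miR-199a-5p: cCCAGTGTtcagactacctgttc
miR-101-3p at E90: tACAGTACtgtgataactgaag
miR-101-3p at P30d: gTACAGTActgtgataact
miR-143-3p at E90: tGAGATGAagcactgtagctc
miR-143-3p at P30d: tGAGATGAagcactgtagct

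The next set holds the miRNAs with the largest ratio in each direction, and miRNAs of seed families that changed as a group: miR-130a and miR-301 share a seed, as do miR-148a and miR-152, and miR-17 and miR-20a.
miR-802-5p at P30d: tCAGTAACaaagattcatcctt
miR-184-3p: tGGACGGAgaactgataagggt
miR-542-3p: tGTGACAGattgataactgaaa
miR-532-5p: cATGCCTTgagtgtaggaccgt
miR-130a-3p: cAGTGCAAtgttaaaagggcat
miR-301-3p: cAGTGCAAtagtattgtcaaagc
miR-148a-3p: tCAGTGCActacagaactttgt
miR-152-3p: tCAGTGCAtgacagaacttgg
miR-17-5p: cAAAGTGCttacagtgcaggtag
miR-20a-5p: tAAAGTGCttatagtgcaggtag

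The last set shows miRNAs that look alike and did not move alike: let-7 members with the same seed, and miR-503 and miR-16, whose seeds differ in their final base.
let-7a-5p: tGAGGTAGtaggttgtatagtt
let-7b-5p: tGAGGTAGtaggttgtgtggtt
let-7c-5p: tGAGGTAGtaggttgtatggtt
let-7f-5p: tGAGGTAGtagattgtatagtt
miR-503-5p at E90: tAGCAGCGggaacagtactgcag
miR-16-5p: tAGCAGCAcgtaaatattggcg

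Of the 335 miRNAs, 114 were higher at P30d (34.0%) and 114 were lower (34.0%), 68.1% in all, and 107 passed neither way. The median log2 ratio was -0.09, and the median of its size without sign was 1.63, so the typical miRNA stood about as often above as below its fetal level but differed by more than the 2-fold rule. At a mean of 100 CPM or more there were 188, of which 61 were higher and 60 lower (64.4% in either direction). The levels of the libraries had a Pearson correlation of 0.71 and a Spearman correlation of 0.70 across the 335 miRNAs, which are not independent replicates. Of all 916 miRNAs with a read, 604 were read in both libraries, 180 at E90 alone and 132 at P30d alone, at unequal depth. Among the members, 263 reached 10 CPM in both libraries, 34 at E90 alone and 38 at P30d alone, so a member could enter through 1 library. Just inside the limit lay miR-330-5p, miR-32-3p and miR-1388-5p, with means between 10.18 and 10.24 CPM. Just outside lay miR-186-3p and miR-193a-3p, both at 9.99 CPM, and miR-6529-3p at 9.79 CPM. The single member with no read in 1 library was miR-1538-3p, with 0 reads at E90 and 118 at P30d.

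**Figure D1:**
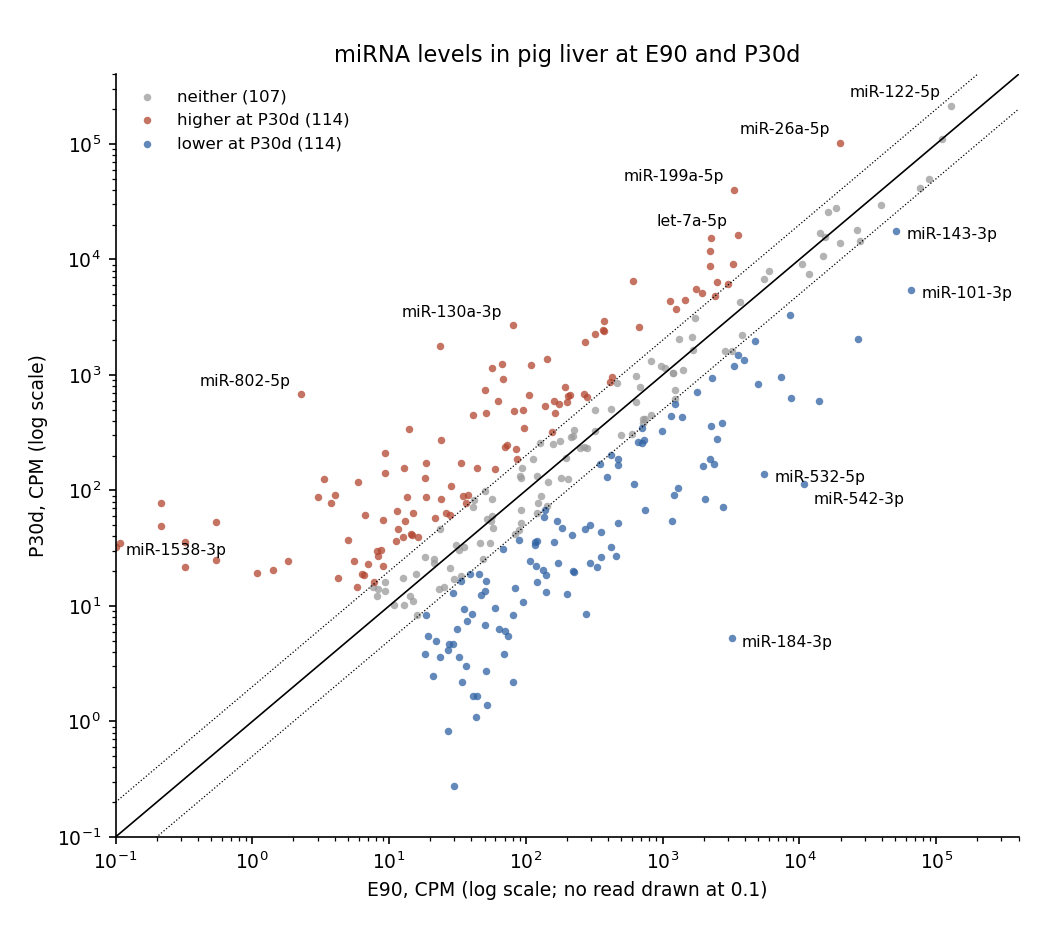
CPM of each of the 335 miRNAs at E90 (x axis) and P30d (y axis), both on log scales, with 1 point per miRNA, red for the 114 higher and blue for the 114 lower at P30d. The solid line marks equal levels and the dotted lines 2-fold, and miR-802-5p and miR-184-3p lie farthest from it among the abundant miRNAs.

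A few miRNAs carried most of the shift in the pool of reads. miR-122-5p, whose hairpin lies on the minus strand of chromosome 1 (179916327 to 179916422, Sscrofa10.2), led both libraries, with 128017 CPM at E90 and 213802 CPM at P30d. Its share went from 12.8% to 21.4% of reads, a gain of 8.58 percentage points, although its log2 ratio of 0.74 lay under the 2-fold rule. miR-26a-5p, a miRNA that restrains cell division in liver, had 19842.6 CPM at E90 and 102238 CPM at P30d, a gain of 8.24 points and a log2 ratio of 2.37 (2.36 to 2.37). It was thus ranked 11 in the fetal and 3 in the young liver.

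miR-199a-5p, a miRNA of stellate and other mesenchymal cells, had 3349 CPM at E90 and 40212 CPM at P30d and moved from rank 35 to rank 6. miR-22-3p, which is made in hepatocytes and many other cells, went from 0.227% to 1.53% of reads, and let-7a-5p from 0.353% to 1.64%. These 5 miRNAs held 65.8% of the 35.1 points gained by all 163 miRNAs whose share grew. The gain was therefore concentrated in few miRNAs.

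On the other side, miR-101-3p, which acts on the chromatin modifier EZH2, had 65392 CPM at E90 and 5493 CPM at P30d. Its share fell by 5.99 points, with a log2 ratio of -3.57 (-3.59 to -3.55). The next losses in share were of miR-99a-5p, from 8.93% to 4.95% of reads, and of miR-148a-3p, from 7.59% to 4.18%, both within 2-fold. miR-143-3p, typical of smooth muscle cells, went from 51124 to 17730.4 CPM (log2 ratio -1.53). miR-152-3p had 26956.5 CPM at E90, where it ranked 9, and 2063 CPM at P30d, where it ranked 47.

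For several of these miRNAs the young liver stood apart from both other libraries. At P7y, miR-26a-5p held 2.54% of reads and miR-199a-5p 0.254%, near their shares at E90, while miR-101-3p had 119966 CPM and miR-143-3p 102624 CPM, above both. miR-122-5p held 3.79% at P7y, below both. Whether age, the animals or the preparation of the P30d library set these values was not tested.

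**Figure D2:**
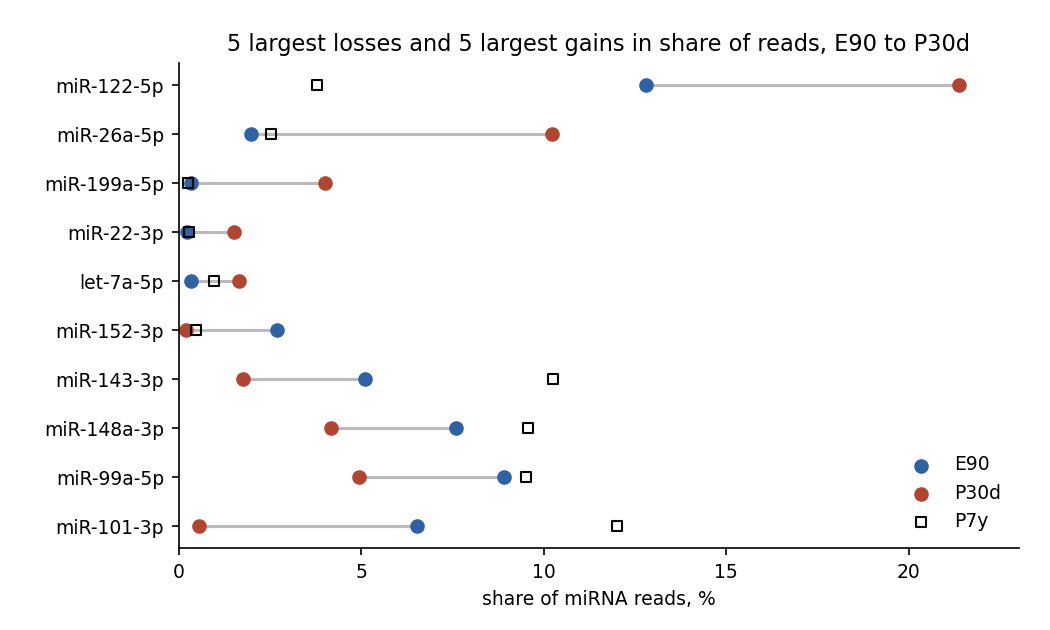
Share of miRNA reads in percent (x axis) of the 5 miRNAs with the largest loss (lower rows) and the 5 with the largest gain (upper rows) from E90 (blue) to P30d (red), with P7y as open squares. miR-122-5p went from 12.8% to 21.4% and miR-101-3p from 6.54% to 0.549%.

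The largest ratios, among those averaging 100 CPM or more, belonged to rarer miRNAs. miR-802-5p, a liver miRNA that acts on glucose metabolism, had 21 reads (2.27 CPM) at E90 and 2483 reads (685 CPM) at P30d, a log2 ratio of 8.24 (7.62 to 8.93), and 63.5 CPM at P7y. miR-885-5p, which is also enriched in liver, had 9.41 and 209 CPM (4.47, 4.15 to 4.81). The passenger arm of the hepatocyte hairpin, miR-122-3p, had 67.2 and 1247 CPM (4.21). All of these liver miRNAs were far higher in the young than in the fetal liver. At P7y miR-885-5p had 13.8 CPM and miR-122-3p 21.8 CPM, both far below P30d.

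Others with a large gain were miR-130a-3p at 80.4 and 2698 CPM (5.07), miR-574-3p at 14.1 and 338 CPM (4.59) and miR-374a-3p at 68.2 and 916 CPM (3.75). miR-146a-5p, which restrains inflammatory signalling, had 56.8 and 1150.4 CPM (4.34). The list was completed by miR-199a-5p at 3.59 and by miR-4792-3p (6.24) and miR-2887-5p (3.87), a pair of names whose hairpins the tables place close together on chromosome 6. The nature of the reads under this pair of names was not tested.

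The steepest loss was that of miR-184-3p, known from epithelia and the eye, with 29543 reads (3196 CPM) at E90 and 19 reads (5.24 CPM) at P30d, a log2 ratio of -9.25 (-9.98 to -8.61). At P7y there were 8 reads, so it was abundant in the fetal library alone. miR-542-3p had 10738 and 115 CPM (-6.55). miR-532-5p had 5542 and 139.7 CPM (-5.31), and miR-503-5p 2780.3 and 72.6 CPM (-5.26). The last 3 belong to hairpin clusters that mammals carry on the X chromosome.

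Next came miR-379-5p (-5.02), with a mismatch in 100% of its reads at E90 and 96.8% at P30d, and miR-409-5p (-4.60) of the DLK1-DIO3 locus, miR-20a-5p (-4.55) of the miR-17-92 cluster, and miR-144-5p (-4.42), from a hairpin of red cell precursors. miR-483-3p, which lies within the fetal growth factor gene IGF2, had 456 CPM at E90 and 27.1 CPM at P30d (-4.08). miR-2478-5p (-3.98), a name taken from another species, closed the list.

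Grouping by seed gave 267 families, of which 87 were higher at P30d (32.6%) and 99 lower (37.1%). Among the 37 families with 2 or more members, which held 105 miRNAs, 18 had members higher and none lower, 12 had members lower and none higher, 3 had both, and 4 had no member called. Members of a family share part of their sequence, so reads with a mismatch can be assigned to a near copy, and they are not independent of each other.

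The family with the largest gain at 1000 CPM or more was that of miR-130 and miR-301 (seed AGTGCAA), with 204 CPM at E90 and 2979 CPM at P30d, a log2 ratio of 3.86 (3.79 to 3.94). Of its 5 members 3 were higher, and miR-130a-3p supplied 9774 of its 10792 reads at P30d. The seed of miR-148a, miR-148b and miR-152 (CAGTGCA) is the same run of letters moved by 1 base, and that family went the other way, from 111545 to 44519.5 CPM (-1.33). These families thus had opposite calls although their seeds overlap.

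Among the other seed families with the largest gains, that of miR-199a-5p and miR-199b-5p went from 4173 to 41521.5 CPM (3.31), with 1 of 2 members higher. miR-142-5p (2.98), a miRNA of blood cells, miR-361-5p (2.82) and miR-716b-3p (2.75) were the only members of their families. The read of miR-716b-3p overlaps most of that of miR-716a-3p, which starts earlier and so has another seed. miR-716a-3p was lower, at 1775 CPM at E90 and 710 CPM at P30d (-1.32), so these overlapping reads had opposite calls. The miR-26 family (seed TCAAGTA) rose from 23132 to 111453 CPM (2.27).

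The family of miR-17, miR-20a, miR-93 and miR-106b (seed AAAGTGC), which promotes cell cycle entry, fell from 18219.5 to 2328 CPM (-2.97), with 4 of 5 members lower. The deepest losses were of families with a single member, those of miR-184, miR-542, miR-532, miR-503 and miR-409 given above. miR-103-3p and miR-107-3p (seed GCAGCAT), which act on insulin signalling, fell together from 8115 to 1369 CPM (-2.57), with miR-103-3p alone called lower.

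The families that held members in both directions were those of miR-92a and miR-25 (seed ATTGCAC), of miR-15 and miR-16 (AGCAGCA), and of miR-374 (TATAATA). In the miR-16 family, miR-16-5p, which slows the cell cycle, had 2207 CPM at E90 and 8716 CPM at P30d (1.98), while miR-424-5p had 1380.4 and 436 CPM (-1.66). As a sum that family was higher, at 4234 and 10213.7 CPM (1.27). Its near relative by seed, miR-503-5p, was among the deepest losses.

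**Figure D3:**
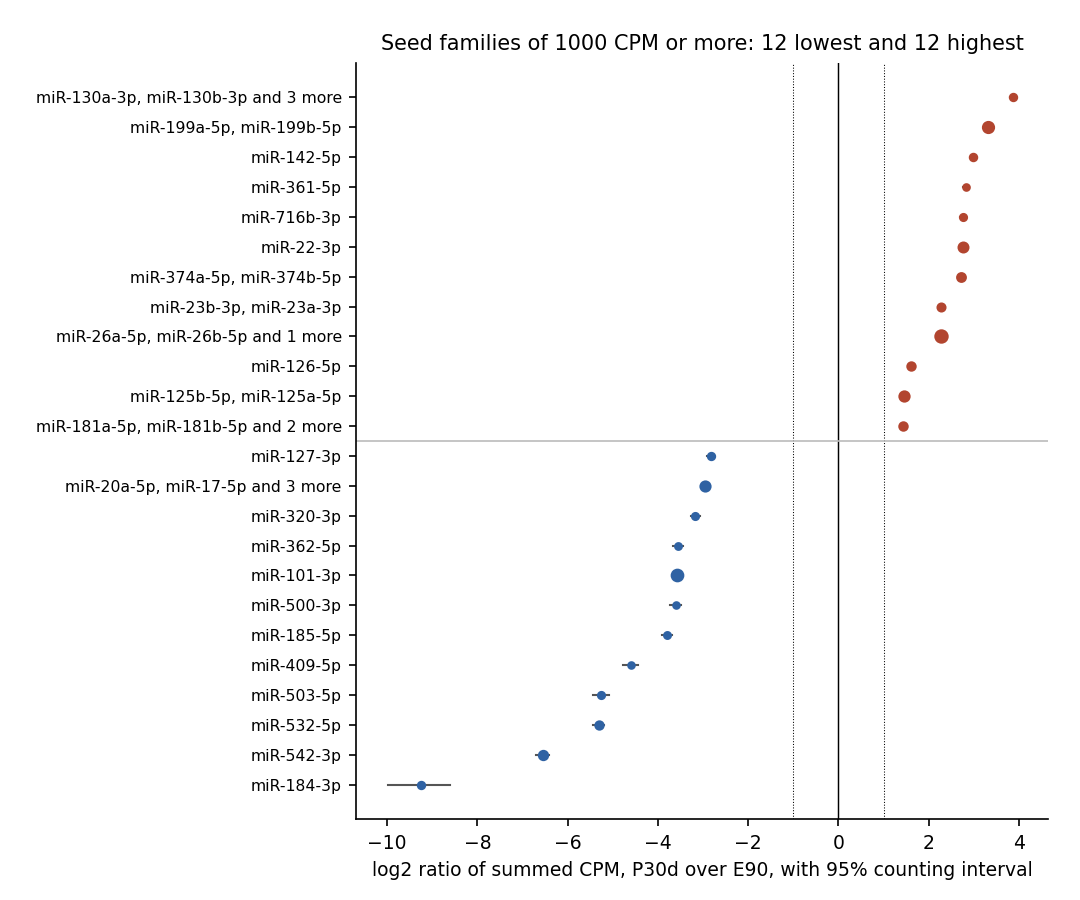
Log2 ratio of summed CPM, P30d over E90 (x axis), for the 12 lowest and 12 highest of the 58 seed families with a mean of 1000 CPM or more, named by their members. Bars are 95% counting intervals, larger points mark more abundant families, and the dotted lines mark 2-fold; the miR-130 family lies highest at 3.86 and miR-184-3p lowest at -9.25.

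Lists of miRNAs by role were counted against the 34.0% of all members called in each direction. The lists were chosen with earlier results of these data known, so their counts and medians are descriptions and not independent comparisons. In tissue, fewer cells of a type and less RNA per cell cannot be told apart. The hepatocyte list had 22 measured arms of 26 with a read, of which 11 were higher and 2 lower, with a median log2 ratio of 1.33 against -0.09 over all members. Among its most abundant members, miR-192-5p, found in gut as well as liver, had 109466 and 109310 CPM, and miR-21-5p 14245 and 17051.9 CPM. Its list-wide share of reads was 43.3% at E90 and 53.4% at P30d.

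Much of the hepatocyte count came from passenger arms. miR-192-3p had 23.9 and 274 CPM (3.52), miR-21-3p 3.35 and 126 CPM (5.23), and miR-101-5p, with 3 and 79 reads, a ratio of 6.07 with an interval of 4.47 to 8.38. Counting the more abundant arm of each hairpin alone, 5 of 13 were higher and 2 lower. The members lower were miR-101-3p and miR-455-5p, the latter at 293 and 23.5 CPM. The main form of miR-194, listed as miR-194a-5p and so not counted in the list, had 27935.9 and 14577 CPM (-0.94).

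The let-7 list had 14 measured arms of 18 with a read, of which 10 were higher and none lower, with a median of 1.80. Counting the more abundant arm alone, 5 of 9 were higher. let-7a-5p had 3530 CPM at E90 and 16430.3 CPM at P30d (2.22, 2.20 to 2.24), and let-7b-5p 319 and 2260.0 CPM (2.82). By contrast let-7f-5p had 5974 and 8010.2 CPM (0.42), and let-7c-5p 1629 and 2122 CPM (0.38).

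These reads differ little. Counted from 1 at the 5′ end, and with the base of let-7a first, the read of let-7f differs by G12A, that of let-7c by A19G, and that of let-7b by A17G and A19G. A read of 1 member with a sequencing error can thus equal another member. The share of reads with a mismatch to the reference was 5.71% at E90 and 4.51% at P30d for let-7a-5p, but 99.9% in both libraries for let-7b-5p. The tables place the let-7b reads on chromosome 13 from 191559231 to 191559492, a span that holds the let-7c hairpin (191559331 to 191559438), and with reads without a mismatch alone let-7b-5p could not be compared. Its value therefore rests on reads that differ from the sequence they were mapped to. let-7d-5p (1.20), let-7e-5p (1.67) and miR-98-5p (1.89) were also higher. The let-7 seed family as a whole, 10 members with seed GAGGTAG, went from 19328 to 40619 CPM (1.07), and stood at 49503 CPM at P7y.

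The metabolic list had 22 measured arms and split evenly, with 9 higher and 8 lower and a median of 0.13. Higher were miR-30c-5p at 1748 and 5514.5 CPM (1.66), miR-27a-3p at 374 and 2384 CPM (2.67), and miR-378-3p, hosted by a regulator of mitochondrial metabolism, at 265 and 688 CPM (1.37). The miRNAs within the SREBP genes of sterol and lipid synthesis were low but higher at P30d, with 84 and 201 reads for miR-33a-5p (2.61) and 1 and 128 reads for miR-33b-5p (8.35, 5.85 to 13.67). Lower were miR-103-3p at 7375 and 952 CPM (-2.95) and miR-375-3p, known from pancreatic islets and epithelia, at 1289 and 104 CPM (-3.63). miR-182-5p, miR-183-5p and miR-96-5p, from 1 cluster, lay between -3.69 and -2.87.

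The list of the miR-17-92 cluster and its paralogs, which drive proliferation, had 15 measured arms, of which 9 were lower and none higher, with a median of -1.27. miR-20a-5p had 13856 CPM at E90 and 592 CPM at P30d (-4.55, -4.61 to -4.49), and miR-19b-3p 4740 and 1966 CPM (-1.27). miR-92a-3p, from the same cluster and the most abundant of the list, had 14799.6 and 10771.5 CPM (-0.46). miR-25-3p, of a paralogous cluster, had 3338 and 1197 CPM (-1.48). Together the list held 4.27% of reads at E90 and 1.71% at P30d.

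The cell cycle brake list, with the miR-15, miR-16 and miR-34 families, had 11 measured arms, 4 higher and 3 lower, with a median of -0.26. Besides miR-16-5p, miR-15b-5p was higher at 165 and 472 CPM (1.52), and miR-497-5p at 24.1 and 84.5 CPM (1.81). miR-34a-5p, a target of p53, had 46.0 and 35.1 CPM, within 2-fold. The lower members were miR-503-5p and both arms of miR-424, which are also in the list that follows.

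The X-linked cluster from miR-424 to miR-542 had 8 measured arms, 5 lower and 1 higher, with a median of -1.65. miR-542-3p had 99258 reads at E90 and 415 at P30d, and miR-450b-5p 5006 and 843 CPM (-2.57). miR-450c-5p, at 3196 and 1601 CPM, and miR-450a-5p, at 1226 and 740 CPM, lay at or within 2-fold. The higher member was the passenger arm miR-542-5p, at 21.7 and 57.4 CPM (1.40). The share of the cluster was 2.44% at E90 and 0.389% at P30d, against 0.101% at P7y.

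The second X-linked cluster, from miR-532 to miR-502, had 8 measured arms, 7 lower and none higher, with a median of -3.52. miR-362-5p had 2224 CPM at E90 and 189 CPM at P30d (-3.56), miR-500-3p 1965 and 162 CPM (-3.60), and miR-660-5p 748 and 67.3 CPM (-3.47). Its share went from 1.10% to 0.0625%. Over the 25 members whose hairpin the tables place at a single site on the X chromosome, 11 were lower and 6 higher, so calls on that chromosome went both ways.

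The DLK1-DIO3 list, miRNAs of a locus expressed from the maternal chromosome, had 63 arms that were read at all, and 23 of them reached the limit on the mean. Of the 23, 20 were lower and none higher, with a median of -2.90, and with the more abundant arm alone 17 of 20 were lower. miR-127-3p had 2728 CPM at E90 and 385 CPM at P30d (-2.82, -2.90 to -2.75), miR-409-5p 2039 and 83.9 CPM, and miR-758-3p 353 and 26.5 CPM (-3.74). miR-381-3p was closer to the size rule, at 350 and 168 CPM (-1.06). The 3 not called, named after their values were seen, were miR-380-3p (-0.98), miR-377-3p (-0.33) and miR-376c-3p (0.93). Many members passed through E90, where they were high, so this count is a description of those kept.

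The erythroid list had 8 measured arms, 2 higher and 3 lower, with a median of -0.61. miR-451-5p, the chief miRNA of red cells, had 3941 CPM at E90 and 1339 CPM at P30d (-1.56), and miR-486-5p 1147 and 445 CPM (-1.36). The erythroid markers miR-451, miR-144 and miR-486 together held 0.724% and 0.303% of reads. The list as a whole held 1.03% at E90 and 1.23% at P30d, so the direction of the share depended on the set. miR-16-5p, which other cells make too, was higher, and miR-144-3p had 978 and 1195 CPM (0.29).

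The leukocyte list had 12 measured arms, 5 higher and 2 lower, with a median of 0.80. miR-142-5p had 374 CPM at E90 and 2956 CPM at P30d (2.98), miR-181a-5p 1255 and 3728 CPM (1.57), and miR-150-5p, a miRNA of mature lymphocytes, 5.95 and 117.9 CPM (4.31). miR-223-3p, of neutrophils and macrophages, moved the other way, at 296 and 50.2 CPM (-2.56). The markers miR-142, miR-223, miR-150 and miR-155 held 0.0980% of reads at E90 and 0.345% at P30d. miR-142-5p alone supplied 3461 of their 9056 reads at E90 and 10708 of 12488 at P30d. The other arm of its hairpin, miR-142-3p, had 195 and 190 CPM (-0.04), so the marker share followed 1 arm. The part of these markers in the other differences was not tested.

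The endothelial list had 12 measured arms, 3 higher and 4 lower, with a median of -0.52. Its marker hairpin miR-126 held 1.33% of reads at E90 and 1.19% at P30d, but its arms diverged: miR-126-3p had 11832 and 7426 CPM (-0.67) and miR-126-5p 1465 and 4458 CPM (1.61). miR-221-3p had 3567 and 1489 CPM (-1.26).

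The mesenchymal and stellate list had 20 measured arms, 9 higher and 3 lower, with a median of 0.66. Its members moved apart, with miR-143-3p and miR-152-3p lower and miR-199a-5p higher, and miR-10a-5p and miR-145-5p within 2-fold. miR-199a-3p, from the hairpin of miR-199a-5p, had 3012 and 6113 CPM (1.02), and miR-214-3p, made with a copy of it, 95.8 and 498 CPM (2.38). The mesenchymal markers held 5.93% of reads at E90 and 6.66% at P30d.

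The biliary and epithelial list had 12 measured arms, 6 higher and 4 lower, with a median of 0.89. miR-24-3p had 2486 CPM at E90 and 6333 CPM at P30d (1.35), and miR-23b-3p 675 and 2584 CPM (1.94). The epithelial miR-200b-3p, at 613 and 115 CPM (-2.42), and miR-429-3p, at 35.1 and 9.38 CPM (-1.90), were lower, while miR-200a-3p, made with them, was higher at 86.1 and 187 CPM (1.12). miR-31-5p had 484 reads at E90 and 5 at P30d (-5.25), and miR-375-3p 1289 and 104 CPM (-3.63). The markers miR-200a, miR-200b, miR-200c, miR-141 and miR-429 held 0.0760% of reads at E90 and 0.0360% at P30d. The list as a whole held 3.71% and 5.09%, so the direction of the share depended on the set.

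The miR-30 list, miRNAs abundant in liver and kidney, had 9 measured arms, 5 higher and 1 lower, with a median of 1.54. miR-30a-5p, miR-30d-5p and miR-30e-5p, which held most of its reads, lay at -0.39, -0.51 and 0.01, while miR-30c-5p (1.66) and miR-30b-5p at 1134 and 4341 CPM (1.94) were higher. With the more abundant arm alone, 2 of 5 were higher and the median was 0.01. The miR-30 seed family as a sum had 77288 and 69085 CPM (-0.16), so the list median did not describe the bulk of its reads.

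Markers of other tissues were scarce. The striated muscle list held 0.0176% of reads at E90 and 0.0383% at P30d, and its 3 measured arms were higher, with miR-499-5p at 155 and 319 CPM (1.04) and miR-133a-3p at 14.7 and 41.1 CPM (1.48). The neural list had 6 measured arms, 1 higher and 2 lower, led by miR-7-5p at 702 and 256 CPM (-1.45). Of the pancreas list miR-375-3p and miR-216b-5p were measured, both lower, the latter with 250 and 3 reads. None of 2 arms with a read in the pluripotency list was kept.

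**Figure D4:**
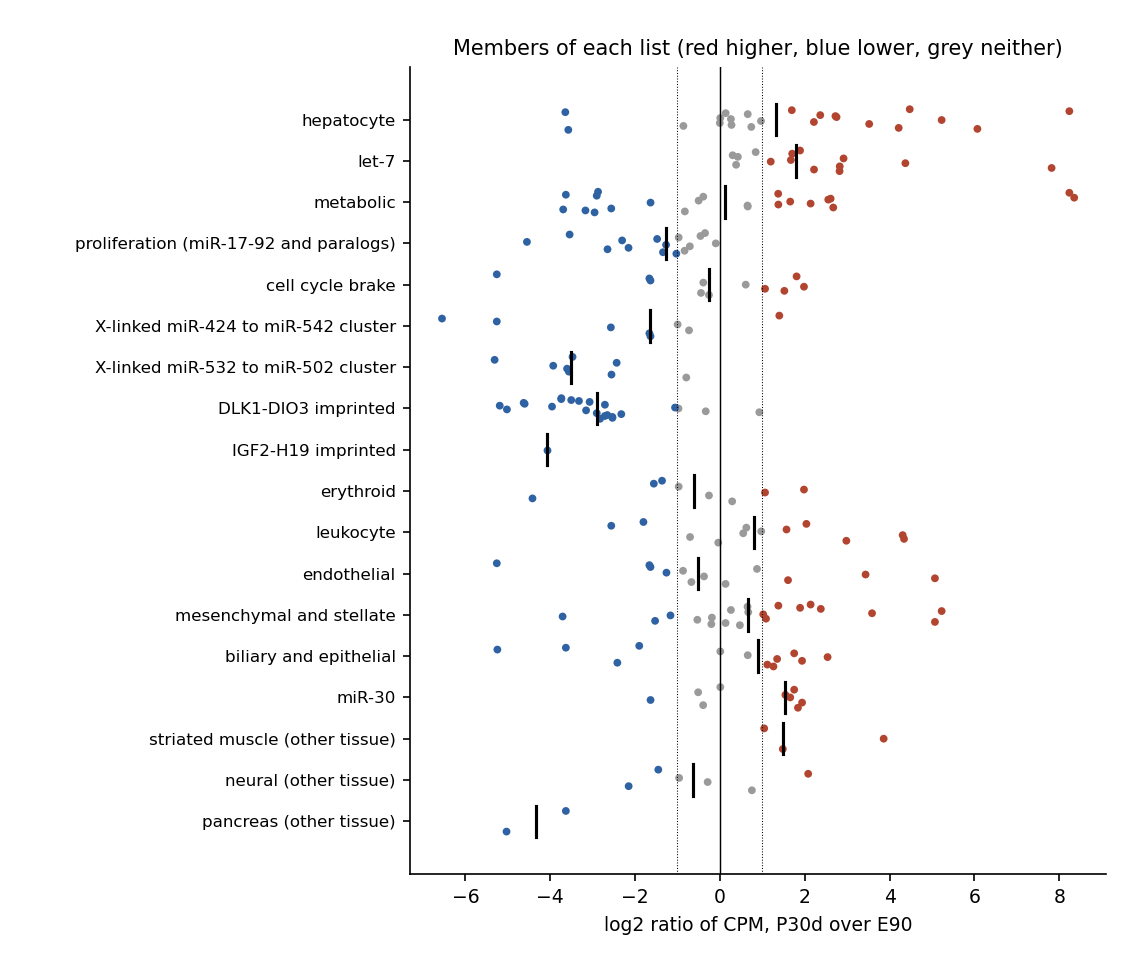
Log2 ratio of CPM, P30d over E90 (x axis), of each measured member of the lists (1 point per arm), with the list median as a black bar and dotted lines at 2-fold. The DLK1-DIO3 list lies left of 0 apart from 1 point, with a median of -2.90, and the let-7 list lies right of 0, with a median of 1.80.

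Hairpins close together in the genome are often cut from 1 transcript. Linking hairpins within 10 kb on a strand gave 33 clusters with 85 hairpins, each represented by its more abundant arm. In 19 clusters members were higher and none lower, in 9 lower and none higher, in 2 both, and in 3 none was called. The median spread between the highest and lowest log2 ratio of a cluster was 1.28, and 9 clusters held 3 or more hairpins. A read that fits several copies is divided among them, so near-identical copies do not vary freely. Reads were also summed by name, so a name with hairpins in more than 1 cluster brings the same value to each. The miR-181a and miR-181b pairs on chromosomes 1 and 10 have identical values, and miR-24-3p and let-7a-5p, among others, recur. The clusters are therefore not independent. Over the more abundant arms of all 244 hairpin names kept, 75 were higher and 88 lower.

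The miR-17-92 cluster (chromosome 11, plus strand, 66610056 to 66610846) had 6 hairpins with ratios from -4.55 for miR-20a-5p to -0.46 for miR-92a-3p, a spread of 4.09. Its paralog (X chromosome, minus strand, 126199342 to 126200263) shares mature reads with it and ranged from -2.65 to -0.46. The cluster of miR-532 and miR-500 (X chromosome, plus strand, 48632024 to 48640903) ranged from -5.31 to -0.79 over 5 hairpins. Every called member of these clusters was lower, but by very different amounts.

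The sensory organ cluster of miR-183, miR-96 and miR-182, on chromosome 18 from 20030634 to 20035303, had the smallest spread of these 9, from -3.69 to -2.87. In the cluster of miR-24, miR-27b and miR-23b on chromosome 10 (31340334 to 31341196), 2 of 3 were higher, with ratios from 0.66 to 1.94. In that of miR-23a, miR-27a and miR-24 on chromosome 2 (65581838 to 65582254), all 3 were higher, from 1.35 to 3.27. The let-7a, let-7f and let-7d cluster on chromosome 3 (44864431 to 44867367) ranged from 0.42 to 2.22.

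The clusters with members in both directions both lay on chromosome 6. From 51858217 to 51858933, miR-99b-5p was lower (-1.37) and let-7e-5p higher (1.67), with miR-125a-5p at 0.22. On the minus strand from 866649 to 870961, 6 hairpins named after miRNAs such as miR-2887 and miR-5105 ranged from -1.32 to 3.93, with 4 higher and 1 lower. Whether the reads under these names, miR-716a-3p among them, are of miRNAs was not tested.

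The balance between the arms of a hairpin, the log2 of 5p over 3p reads, could be compared where a hairpin had 50 reads or more in both, which 187 did. It shifted to the 5p arm by 2-fold or more in 42 (22.5%) and to the 3p arm in 69 (36.9%), 111 in all (59.4%). In 74 of these 111 the shift was toward the arm that was the minor one at E90. The minor arm was named from the same E90 counts that the shift is measured from, which favours that direction in advance. Over all 187 hairpins, the share of that arm was larger at P30d in 113. Of the 91 measured arms that were not the leading arm of their hairpin, 39 were higher and 26 lower, with a median of 0.44, against 75 and 88 of 244 leading arms, with a median of -0.22.

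Among hairpins with a mean of 100 CPM or more, the largest shift to 5p was that of miR-101, with 3 reads of 5p and 604455 of 3p at E90 and with 79 and 19901 at P30d. In miR-542 the 5p arm held 0.202% of reads at E90 and 33.4% at P30d, in miR-505 0.343% and 17.4%, and in miR-181c 29.0% and 90.0%. In miR-101 the log2 ratio of CPM was 6.07 for the 5p arm, from few reads, and -3.57 for the 3p arm. In miR-542 the ratios were 1.40 and -6.55, so the 3p arm changed more.

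The largest shifts to 3p were those of miR-5097, miR-21, miR-130b and miR-144. In miR-130b the 5p arm held 76.1% of reads at E90 and 10.6% at P30d, and in miR-144 54.4% and 4.37%. In miR-21 the 5p arm held over 99% in both libraries, but its 3p arm had 31 reads at E90 and 455 at P30d. In miR-5097 the 5p arm had 1134 reads against 28 of 3p at E90, and 280 against 320 at P30d.

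The arm with more reads differed between the libraries in 18 hairpins, among them miR-130b, miR-144, miR-574, miR-455, miR-181c, miR-335 and miR-885. In miR-335, hosted by the imprinted gene MEST, the 5p arm went from 31.2% to 79.0%. Over all members, 5p arms held 65.2% of reads at E90 and 81.2% at P30d, to which the gains of miR-122-5p, miR-26a-5p and miR-199a-5p and the losses of miR-101-3p, miR-148a-3p and miR-143-3p contributed.

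**Figure D5:**
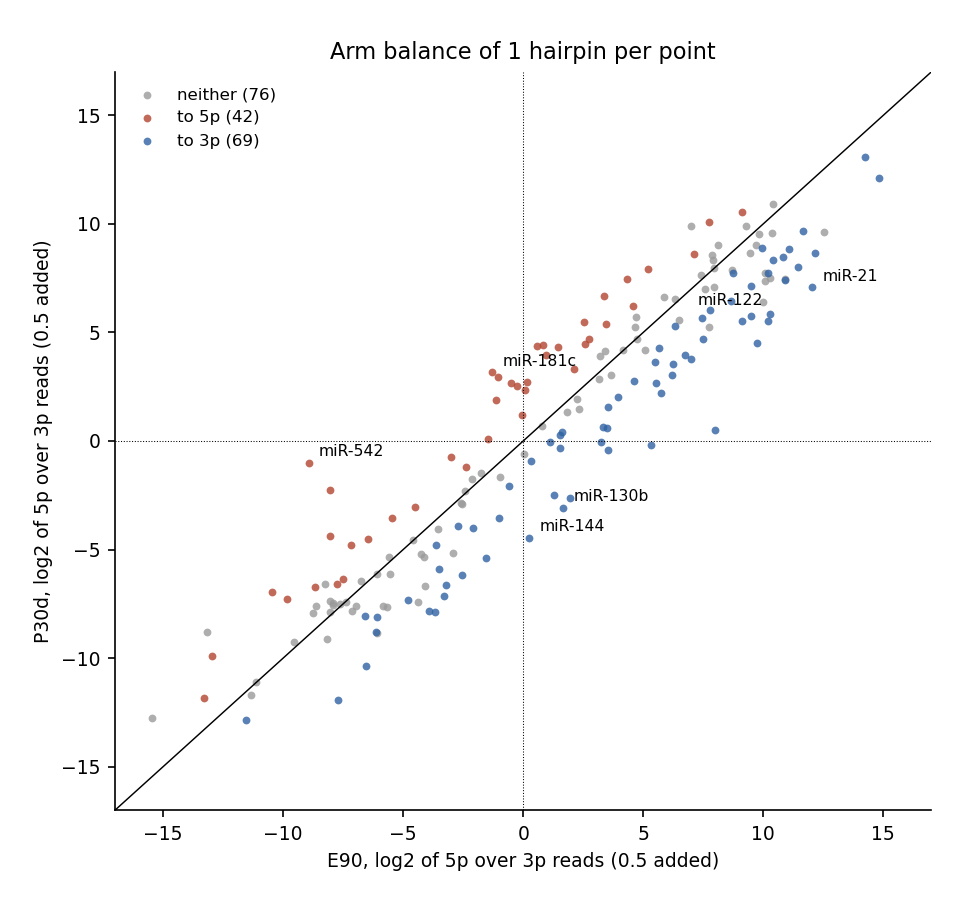
Arm balance, the log2 of (5p + 0.5) over (3p + 0.5) reads, at E90 (x axis) and P30d (y axis), for 187 hairpins, 1 point each, with the line of equal balance. The 69 hairpins that shifted to 3p (blue) lie below the line and the 42 that shifted to 5p (red) above it, and miR-144 and miR-130b cross from the 5p to the 3p side.

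The ends of the reads differed too. Per the file headers, the representative read of an arm is the one with the best mapping score. It was the same in both libraries for 213 of 335 miRNAs. For 37 the P30d read had the same start and was shorter, for 35 it was longer, and for 9 it had the same ends and another base. It started at another base for 30, which changes the seed, and did not overlap for 10.

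The most abundant miRNA with another start was miR-101-3p, whose P30d read, shown above, begins 1 base earlier and ends 4 bases earlier than the E90 read. It also had the largest loss in share of reads. The next were miR-5115-5p, miR-4454-5p, miR-2478-3p and miR-2887-5p, names known from other species. miR-802-5p started 1 base earlier at P30d, but its E90 read rests on 21 reads.

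For miR-122-5p the representative reads differed in their final base, given with the E90 base first as A23T. The share of its reads with a mismatch to the reference was 34.5% at E90 and 10.04% at P30d, and miR-194-3p and miR-99a-3p had the same A23T difference. miR-152-3p went the other way, from 9.05% of reads with a mismatch at E90 to 42.1% at P30d. Over the 79 miRNAs that averaged 1000 CPM or more, that share was higher at P30d in 50 and lower in 29. Over all named reads it was 18.6% at E90 and 13.9% at P30d.

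The final base of the representative read was also compared. With each library classed by its own reads, miRNAs whose read ended in T held 42.6% of reads at E90 and 68.9% at P30d, those ending in A 20.4% and 5.55%, those ending in G 13.3% and 3.81%, and those ending in C 23.7% and 21.8%. Much of the difference in A and T came from miRNAs whose class changed, chiefly miR-122-5p (A to T), besides miR-143-3p (C to T) and miR-101-3p (G to T). Without miR-122-5p, miRNAs whose representative read ended in A held 8.60% at E90 and 6.99% at P30d, and those ending in T 49.0% and 60.5%. All reads of a miRNA were given the final base of its representative read, and the ends of its other reads were not counted. With every miRNA classed by its E90 read in both libraries, the shares at E90 and P30d were 20.3% and 25.8% for A, 42.7% and 44.6% for T, and 13.3% and 3.34% for G. The direction for A thus turned with the choice of class, and that for G did not.

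By the final base of the E90 read, the median log2 ratio was -0.85 for A (70 miRNAs, 20 higher and 31 lower), -1.08 for G (42, 13 and 21), -0.14 for T (151, 50 and 48) and 0.76 for C (71, 30 and 14). Of the 10 deepest losses at a mean of 100 CPM or more, the E90 reads of 4 end in T, among them miR-184-3p and miR-532-5p, 3 in G, 2 in A and 1 in C. Of the 10 largest gains, 7 end in T, 2 in C and 1 in A. The ratio had a Spearman correlation of 0.05 with the GC content and of -0.03 with the length of the read across the 335 miRNAs. The part that the end of the read plays in the differences was not tested.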

How the data were processed

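Small RNA of 14 to 40 nt was sequenced from 1 liver library per stage, per the labels, from total RNA with an integrity number above 6.0. The authors deposited a table for each library, in which a line stands for a hairpin arm. Per the file headers, reads were mapped to known miRNA hairpins of pig and other mammals and to the genome, and hairpins were sorted into groups, the last of predicted candidates. The values the authors deposited for each arm are expected counts, because the authors divided a read that fits several hairpins between these. The copies of the representative read are deposited as counts. Coordinates are on Sscrofa10.2, the build in the submitters' processing notes. For the aligner and the trimming, the method is not given in the sources used here. Host genes of hairpins were not analysed here, and sequences are those of the deposited tables.

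Expected counts of the known groups were summed by mature name and arm and rounded. Of 1008 names, 25 were joined to others where 1 representative read, at least 18 nt long, made up over 50% of the reads under each name. CPM are per 1000000 such reads, and 3 reads stood in for 0 in a ratio. Ratios have exact conditional binomial 95% intervals. Arm balances have exact conditional odds ratio intervals, or the large-count formula where all 4 counts were 1000 or more. Members and lists were chosen with earlier results of these data known. Named miRNAs were the top 10 of either library by level, the 10 largest ratios each way at a mean of 100 CPM or more, the 5 largest gains and losses in share, up to 4 members per list by level, the 5 seed families each way at 1000 CPM or more, the 4 hairpins with the largest arm shift each way, the 5 most abundant miRNAs with another read start, clusters of 3 or more hairpins, those beside the 10 CPM limit, miR-122 and let-7, and others were chosen after their values were seen. Some lists share members, such as miR-503 and miR-27b.

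Alternatives used TMM factors (edgeR 4.0.16), size factors (DESeq2 1.42.0), other filters, names and reads. Software was R 4.3.3, SciPy 1.17.1, pandas 2.3.3, matplotlib 3.10.9, NumPy 2.4.6 and Python 3.11.15, and the ratio and its call were tested on simulated data.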

Additional observations from a re-analysis of the deposited data

Results flagged for a closer look

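Reads of predicted hairpins without a known miRNA lay outside every comparison above. They made up 1.73% of the reads in the table at E90 (exact Clopper-Pearson interval 1.72 to 1.74) and 4.03% at P30d (4.01 to 4.05), far above what a count of 0 allows, and no control samples exist. At E90 a single predicted arm held 77.4% of them. At P30d the 3 most abundant predicted arms held 50.6%, 29.7% and 6.93%, and the tables place them on the minus strand of chromosome 6. The first 2 lie from 870046 to 870306, within the span of the cluster that holds miR-2887 and miR-5105, and the third from 874152 to 874411, beyond it. Their nature was not tested.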

How the results depend on the processing

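With 114 miRNAs higher and 114 lower as the reference, the counts came to 193 and 196 with no filter, 61 and 60 at a mean of 100 CPM or more, and 61 and 74 with a 4-fold rule, each of which changes the number of miRNAs that can pass. With known pig miRNAs alone 86 were higher and 62 lower. TMM scaling gave 112 and 121, DESeq2 size factors 119 and 108, and reads without a mismatch 93 and 130. Representative reads with another start fell from 30 to 16 at a mean of 100 CPM or more. The other counts of miRNAs, seed families, arm shifts and clusters, and the numbers of lists with more members higher (9) or lower (9), stayed within 1.5 times of theirs under the alternatives run. Counts within lists moved further with the more abundant arm alone, since fewer arms are counted: members higher went from 11 to 5 in the hepatocyte list, from 10 to 5 in let-7, from 9 to 5 in the mesenchymal list, from 5 to 2 in miR-30, from 2 to 1 in the erythroid list and from 1 to 0 in the miR-424 cluster and the neural list. Members lower went from 7 to 4 in the miR-532 cluster, from 2 to 1 in the leukocyte list and from 1 to 0 in miR-30. The shares of miRNAs classed by the final base of their representative read depended on the rule, an alternative chosen after seeing the data. Classed by the E90 read in both libraries, A stood at 20.3% and 25.8% and T at 42.7% and 44.6%, at E90 and P30d in that order. Without miR-122-5p, A stood at 8.60% and 6.99% and T at 49.0% and 60.5%. Of 609 values of named and called miRNAs under 7 alternatives, none changed direction. Many of these could not have done so, since a called log2 ratio is 1 or more in size. TMM only moves every log2 ratio by -0.04 and DESeq2 by 0.09. Dropping the 5 most abundant of each library from the scaling, 6 miRNAs in all, moves every ratio by 0.10. Unjoined names left 124 named ratios within their interval and 2 outside. Direction was therefore tested chiefly by the alternatives that choose other reads. Reads without a mismatch gave no value at the 10 CPM limit for some, let-7b-5p and miR-379-5p among them. The size of the ratios was less stable than their direction. With the representative read alone, 93 named miRNAs had a ratio outside their counting interval and 32 within it. Reads without a mismatch gave 67 outside and 52 within, the total without the 5 most abundant of each library 64 and 62, and DESeq2 61 and 65. TMM gave 33 and 93, and known pig miRNAs alone 15 and 78. No paired analysis was possible because each stage had 1 library, and for the same reason no library could be left out. Depth limits P30d most, where 1 read equals 0.276 CPM.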
